A study of Mus musculus with 6 samples.

Results

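The immunoglobulin kappa variable (*Igkv*) genes were described in orthotopic ovarian tumors of WT and *Tgm2* knockout mice, in terms of how much of the kappa light chain signal each gene and each *Igkv* subgroup held in each tumor. Members were all genes of the deposited table whose symbol begins with *Igkv* followed by a number, and this gave 83 of 20076 genes. They fall into 19 subgroups, where the subgroup is the number before the dash of the symbol and joins variable genes of related sequence. Cells of the mouse ovarian cancer line ID8 *Trp53-/- Brca1-/-*, which lacks both tumor suppressors, were injected under the bursa of both ovaries. The hosts were C57BL/6 WT and *Tgm2* knockout mice aged 6 to 10 weeks, and primary tumors were collected 6 weeks later. The paper names separate origins for the WT and knockout mice, both bred in-house, so colony and host genotype cannot be told apart. The groups were 3 tumors from WT hosts and 3 tumors from *Tgm2* knockout hosts. Hosts of both groups received the same cancer cells, which carry their own *Tgm2* gene, so in the knockout group TG2 is missing only from the host cells of the tumor microenvironment (TME). The labels do not say that the 3 tumors of a group came from separate mice, so the p-values measure the spread between these tumors. PolyA-selected RNA of whole tumors was sequenced. Values of a group are given in the order of tumors 1, 2 and 3.

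Each B cell builds its kappa light chain gene by joining 1 variable gene to 1 short joining gene upstream of the single constant gene, *Igkc*. The spliced transcript therefore holds 1 variable part and 1 constant part, and the descendants of a B cell usually keep the same variable gene. Plasma cells, the antibody-secreting descendants of B cells, carry far more of this transcript than resting B cells, so a few plasma cell clones can supply much of the *Igkv* signal of a tissue. In whole tumor RNA, more cells of a type and more RNA per cell cannot be told apart.

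All 83 members matched the GENCODE M21 annotation of GRCm38 and all are annotated there as variable genes (IG_V_gene), of 100 such genes and 60 *Igkv* pseudogenes in the annotation. They span chromosome 6 from 67555497 to 70704177, upstream of *Igkc* (70726435 to 70726966, plus strand), with 30 members on the plus strand and 53 on the minus strand. The variable exon codes for the antigen-binding domain, and its last bases, from the codon of the conserved cysteine onward, begin the third complementarity-determining region (CDR3), the stretch that also takes in the joining gene. The last 240 bases of the exon are shown for the gene with the highest fold change, the leading gene in *Tgm2* knockout tumors 2 and 3, and the gene that led in WT tumors 1 and 3. They are given 5′ to 3′ along the gene, with the germline part of CDR3 in capitals.
Igkv9-124 (chr6:67942074-67942313, minus strand): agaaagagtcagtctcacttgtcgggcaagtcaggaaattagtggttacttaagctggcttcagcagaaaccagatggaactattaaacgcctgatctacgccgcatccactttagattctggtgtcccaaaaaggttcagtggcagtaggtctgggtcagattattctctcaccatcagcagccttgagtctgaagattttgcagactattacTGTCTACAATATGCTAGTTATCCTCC
Igkv4-55 (chr6:69607275-69607514, minus strand): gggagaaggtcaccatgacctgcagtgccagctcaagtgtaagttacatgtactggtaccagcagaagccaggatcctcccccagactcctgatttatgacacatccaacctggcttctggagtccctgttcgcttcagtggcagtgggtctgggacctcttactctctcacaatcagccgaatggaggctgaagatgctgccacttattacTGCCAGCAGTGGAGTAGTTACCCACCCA
Igkv8-16 (chr6:70386672-70386911, minus strand): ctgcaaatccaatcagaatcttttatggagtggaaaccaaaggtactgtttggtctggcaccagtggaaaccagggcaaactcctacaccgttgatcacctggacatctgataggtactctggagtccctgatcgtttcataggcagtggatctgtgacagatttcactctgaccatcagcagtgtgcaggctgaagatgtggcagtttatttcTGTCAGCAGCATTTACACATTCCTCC

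Many of these genes resemble one another, which bears on how reads are divided between them. The variable exon of 35 members was more than 95% identical to that of another member, and the median identity to the nearest member was 92.98%. *Igkv9-124* was 96.0% identical to *Igkv9-120*, and *Igkv4-55* was 95.4% identical to *Igkv4-68*. *Igkv8-16* stood further apart, at 82.0% to its nearest member, *Igkv8-19*. Of the 31-base words in the transcripts of a member, the length by which reads were matched, a median of 51.98% were found in no other annotated *Igkv* gene. The share was lowest in *Igkv4-59* (13.0%). It was 48.6% in *Igkv9-124*, 21.8% in *Igkv4-55* and 96.8% in *Igkv8-16*. Within a subgroup, by contrast, a median of 100% of the words were found in no other subgroup and the lowest member reached 84.94%. A value for a subgroup is therefore better determined by the sequence than a value for a single gene.
The short CDR3 ends show where leading genes can and cannot be told from their neighbours, with the whole germline part in capitals.
Igkv9-124: TGTCTACAATATGCTAGTTATCCTCC
Igkv9-120 and Igkv9-129: TGTCTACAATATGCTAGTTCTCCTCC
Igkv4-55: TGCCAGCAGTGGAGTAGTTACCCACCCA
Igkv4-68, Igkv4-72, Igkv4-59 and Igkv4-71: TGCCAGCAGTGGAGTAGTAACCCACCCA
Igkv19-93: TGTCTACAGTATGATAATCTTCTACC
The end of *Igkv9-124* differed from that of *Igkv9-120* by 1 base, and the end of *Igkv4-55* differed from that of *Igkv4-68* by 1 base. *Igkv4-68*, *Igkv4-72*, *Igkv4-59* and *Igkv4-71* shared the same end.

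Values are normalized counts, not scaled for gene length, and the variable exons of the members range from 294 to 316 bases. The table is labelled TPM, but its columns sum to 34801694, 35325875 and 33916288 across the WT tumors, against 32316613, 35827822 and 37717165 across the knockout tumors. A single read was worth 0.946, 1.04 and 1.01 normalized counts across the WT tumors, against 0.946, 0.981 and 1.08 across the knockout tumors, so a value near 1 stands for about 1 read.

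*Tgm2* itself, which encodes TG2, was measured first. Its normalized counts were 14978, 12155 and 13180 across the WT tumors, against 5853, 6071 and 8157 across the knockout tumors. The highest knockout value lay under the lowest WT value, and the log2 fold change was -1.02 (SE 0.22, adjusted p = 0.391 by limma over all genes). Transcripts that remain in the knockout hosts can come from the injected cells.

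Kappa variable transcripts as a whole were far more abundant in the *Tgm2* knockout tumors. The summed *Igkv* value was 3789, 3035 and 7072 normalized counts across the WT tumors, against 62254, 73457 and 142227 across the knockout tumors. The lowest knockout tumor thus lay well above the highest WT tumor, and the mean difference was 4.32 on the log2 scale. As a percent of all normalized counts, *Igkv* genes took 0.0109, 0.00859 and 0.0209 across the WT tumors, against 0.193, 0.205 and 0.377 across the knockout tumors. The constant gene *Igkc* moved with them, at 8870, 6618 and 14622 normalized counts across the WT tumors, against 129652, 151166 and 300054 across the knockout tumors. The ratio of summed *Igkv* to *Igkc* was 0.427, 0.459 and 0.484 across the WT tumors, against 0.480, 0.486 and 0.474 across the knockout tumors. These ratios overlapped between the groups (0.456 ± 0.028 against 0.480 ± 0.006, SD, n = 3 tumors per group). Markers of white adipocytes separated the groups as well. The mean of 10 such markers on the log2 scale was 9.67, 10.3 and 9.21 across the WT tumors, against 10.9, 12.7 and 12.0 across the knockout tumors, so host genotype and adipocyte content cannot be told apart for the *Igkv* values.

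Usage also differed by subgroup. Relative to the summed *Igkv* value of each tumor, the *Igkv4* and *Igkv9* subgroups held a higher share in every *Tgm2* knockout tumor than in any WT tumor, the *Igkv8*, *Igkv17* and *Igkv12* subgroups held a lower share in every knockout tumor, and the other 14 subgroups overlapped. The smallest two-sided p that an exact permutation test allows for groups of this size is 0.1, and shares within a tumor are tied to one another, so these are descriptions.

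**Figure D1:**
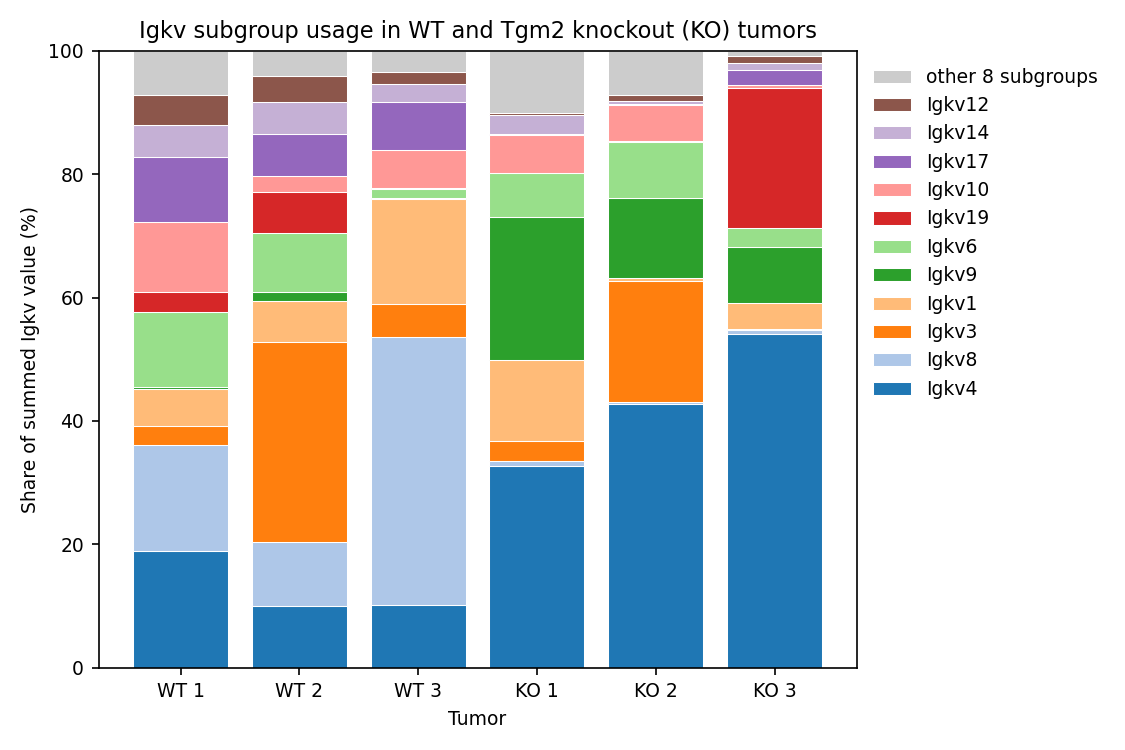
Share of each Igkv subgroup in the summed Igkv value (percent, vertical axis) in the 3 WT and 3 Tgm2 knockout (KO) tumors, 1 stacked bar per tumor. Igkv4 (lowest block) reached 32.8% to 54.2% in knockout tumors and 9.95% to 19.0% in WT tumors, while Igkv8 took 10.5% to 43.5% in WT tumors and under 1% in each knockout tumor.

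*Igkv4*, with 21 members the subgroup with the most members, held 19.0%, 9.95% and 10.1% of the summed value across the WT tumors, against 32.8%, 42.8% and 54.2% across the knockout tumors (13.0% ± 5.17 against 43.2% ± 10.7, SD, n = 3 tumors per group). The genes behind it were not the same in each tumor. Within *Igkv4*, *Igkv4-68* was the leading gene of WT tumor 1, with 47.1% of the subgroup, *Igkv4-63* of WT tumor 2, with 24.9%, and *Igkv4-55* of WT tumor 3, with 34.7%. In knockout tumor 1 the subgroup was divided mainly between *Igkv4-68* (33.5%), *Igkv4-80* (29.4%) and *Igkv4-55* (18.4%). In knockout tumors 2 and 3 *Igkv4-55* alone took 54.9% and 64.1% of the subgroup. When the most abundant *Igkv* gene of any tumor (*Igkv9-124*, *Igkv4-55*, *Igkv8-16* and *Igkv3-5*) was left out of the sums, the *Igkv4* share remained higher in every knockout tumor, with a mean difference of 18.83 percentage points.

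*Igkv9* held 0.393%, 1.38% and 0.261% across the WT tumors, against 23.2%, 12.9% and 9.07% across the knockout tumors. *Igkv9-124* made up nearly all of the subgroup in the knockout tumors, at 23.0%, 12.8% and 9.04% of the summed *Igkv* value. Without the leading genes, the mean difference of the *Igkv9* share was -0.78 percentage points, so the difference in this subgroup rested on this 1 gene.

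*Igkv8* took 17.2%, 10.5% and 43.5% in WT tumors 1 to 3 but 0.731%, 0.355% and 0.575% across the knockout tumors. Its summed normalized counts were 650, 318 and 3075 across the WT tumors, against 455, 261 and 818 across the knockout tumors, which overlapped, so its lower share came with a level that did not separate the groups. *Igkv8-16* was the leading member, with 79.7%, 69.7% and 89.6% of the subgroup in the WT tumors. It also led in knockout tumors 2 and 3, with 77.4% and 65.9%, whereas in knockout tumor 1 the largest part, 63.4%, belonged to *Igkv8-27*. *Igkv17*, with only *Igkv17-121* and *Igkv17-127* as members, held 10.6%, 6.73% and 7.84% across the WT tumors, against 0.0496%, 0.0213% and 2.42% across the knockout tumors. The *Igkv17* level overlapped, at 401, 204 and 554 normalized counts across the WT tumors, against 30.9, 15.6 and 3449 across the knockout tumors. *Igkv12* held 4.87%, 4.27% and 2.00% across the WT tumors, against 0.414%, 0.931% and 1.09% across the knockout tumors. Its level was nonetheless higher in every knockout tumor, at 185, 130 and 141 normalized counts across the WT tumors, against 258, 684 and 1555 across the knockout tumors. On a centred log ratio scale, which compares each subgroup with the geometric mean of all subgroups in the tumor, *Igkv8* alone stayed lower in every knockout tumor.

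Several of the overlapping subgroups varied mainly from tumor to tumor. *Igkv3* held 32.4% in WT tumor 2 and 19.5% in *Tgm2* knockout tumor 2, but 0.10% to 5.30% in the other tumors. *Igkv19* has the single member *Igkv19-93* and held 22.8% in knockout tumor 3, against 0.0662% and 0.169% in knockout tumors 1 and 2 and 0.188% to 6.70% in the WT tumors. *Igkv1* was highest in WT tumor 3 (17.0%) and knockout tumor 1 (13.2%) and lowest in knockout tumor 2 (0.546%). *Igkv10* ranged from 2.56% to 11.3% in WT tumors and from 0.420% to 6.12% in knockout tumors. *Igkv6* ranged from 1.46% to 12.2% in WT tumors and from 2.97% to 9.04% in knockout tumors. *Igkv5* reached 8.74% in knockout tumor 1 and was at most 1.66% elsewhere. *Igkv14* differed more by group, with a mean of 4.40% in WT and 1.61% in knockout tumors. It held 5.20%, 5.22% and 2.79% across the WT tumors, against 3.08%, 0.594% and 1.16% across the knockout tumors, with overlap.

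Single genes were then compared across the whole table. Of the 83 members, 76 had a normalized count of at least 1 in at least 3 tumors and were tested with the other genes, and 3 passed an adjusted p of 0.05 and a log2 fold change of 1 (limma, Benjamini-Hochberg over 19667 genes). All 3 were higher in *Tgm2* knockout tumors, where the background over all genes tested was 0.102% higher and 0% lower. At an unadjusted p under 0.05 with the same fold change limit, 18 members were higher (background 2.5%) and 1 was lower (background 1.55%). The groups were apart with the knockout tumors on top in 17 members (background 5.18%) and with the WT tumors on top in 0 members (background 5.33%), and 59 overlapped. The median log2 fold change was 1.51 over the members tested and 1.5 over all 83 members, beside a median of -0.03 over all genes tested. The direction was not shared by all members, since 55 had a log2 fold change above 0 (background 47.3%) and 21 below 0. A count of members that passed the filter is a description, because some passed it only with the knockout tumors counted. *Igkv4-80* had no WT tumor at 1 or more. *Igkv9-124*, *Igkv4-71* and *Igkv4-90* were among those with fewer than 3 WT tumors at that level.

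*Igkv9-124* gave the clearest difference. It was listed at 6.5, 0 and 1.02 normalized counts across the WT tumors, against 14307, 9411 and 12858 across the knockout tumors. The log2 fold change was 12.24 on the log2(value + 1) scale (SE 0.68, adjusted p = 0.000989 by limma), and it passed both limits in each of the 6 fits that left out 1 tumor. Because the WT values are so low, this size depends on the pseudocount, at 13.7 with a pseudocount of 0.1 and 9.94 with 10. With the mean of the white adipocyte markers as a covariate, its log2 fold change was 13.38 (adjusted p = 0.254 by limma), and 0 *Igkv* genes passed the limits. That mean was at most 10.3 in the WT tumors and at least 10.9 in the knockout tumors. The fit therefore cannot separate adipocyte content from genotype, and nothing is read from the lost calls. Its nearest relative in sequence, *Igkv9-120*, had 7.47, 26.5 and 17.4 normalized counts across the WT tumors, against 105, 10.8 and 42.5 across the knockout tumors, which overlapped.

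*Igkv4-72* had 15.9, 24.6 and 20.4 normalized counts across the WT tumors, against 583, 5414 and 7285 across the knockout tumors (log2 fold change 7.08, SE 0.85, adjusted p = 0.0329 by limma). It held its call in 1 of the 6 fits that left out 1 tumor, and with the adipocyte covariate its log2 fold change was 4.07 (adjusted p = 0.421 by limma). *Igkv4-80* was listed at 0 in each WT tumor, against 6009, 289 and 227 normalized counts in the knockout tumors. It met the filter through the knockout tumors alone, so its call, held in 2 of the 6 fits, gives no support of its own. Knockout tumor 1 carried 92.1% of its knockout value.

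Other leading genes were higher in every knockout tumor without passing adjustment over all genes. *Igkv4-55* had 37.4, 2.04 and 248 normalized counts across the WT tumors, against 3750, 17239 and 49399 across the knockout tumors (log2 fold change 8.90, SE 1.49, adjusted p = 0.169 by limma). *Igkv4-68* had 338, 31.7 and 150 normalized counts across the WT tumors, against 6838, 2068 and 4937 across the knockout tumors (log2 fold change 5.12, SE 0.80, adjusted p = 0.117 by limma). Since *Igkv4-55* has few words of its own, its single-gene value is less certain than the *Igkv4* sum. *Igkv10-96* had 70.1, 67.4 and 417 normalized counts across the WT tumors, against 3154, 4346 and 573 across the knockout tumors (log2 fold change 3.97, adjusted p = 0.436 by limma), so the groups did not overlap but knockout tumor 3 lay close to WT tumor 3.

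**Figure D2:**
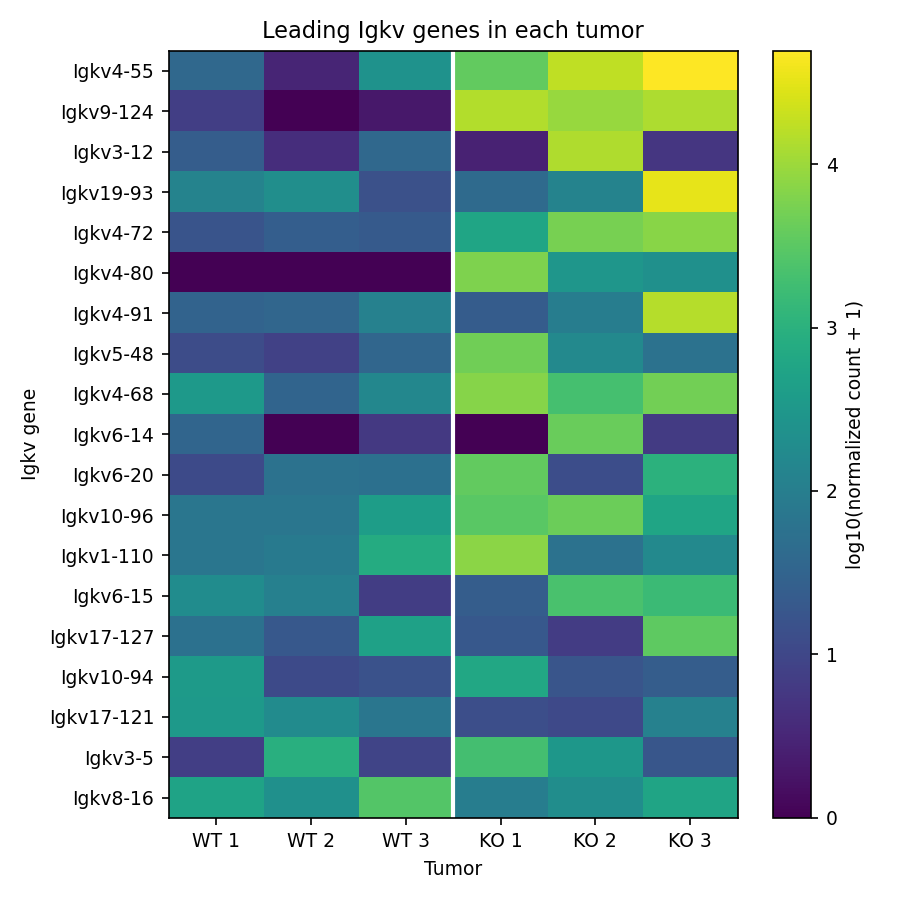
Normalized counts of 19 leading Igkv genes (rows) in each tumor (columns) as log10(normalized count + 1), with the WT tumors left of the white line and the Tgm2 knockout (KO) tumors right of it. Igkv4-55, Igkv9-124 and Igkv4-68 were above 1000 in each knockout tumor, whereas Igkv3-12, Igkv19-93 and Igkv4-91 were above 1000 in a single knockout tumor.

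*Igkv8-16*, the leading gene of WT tumors 1 and 3, was lower in the knockout tumors in share without overlap, and lower in mean level with overlap. It had 518, 222 and 2756 normalized counts across the WT tumors, against 98.4, 202 and 539 across the knockout tumors (log2 fold change -1.62, SE 0.92, adjusted p = 0.889 by limma). Leaving out 1 tumor moved its log2 fold change to between -2.43 and -0.62, the latter without WT tumor 3. Its levels overlapped, while its share was 13.7%, 7.30% and 39.0% across the WT tumors, against 0.158%, 0.275% and 0.379% across the knockout tumors. *Igkv17-121* had the lowest fold change among the members with a mean of at least 10 normalized counts and was the only member lower at an unadjusted p under 0.05. It had 347, 186 and 67.6 normalized counts across the WT tumors, against 12.2, 9.78 and 116 across the knockout tumors (log2 fold change -2.69, SE 1.0, adjusted p = 0.802 by limma), and knockout tumor 3 lay within the WT range.

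Most of the abundant *Igkv* genes were abundant in a single tumor. In the *Tgm2* knockout tumors 26 members reached 1000 normalized counts in at least 1 tumor, of which 3 (*Igkv9-124*, *Igkv4-55* and *Igkv4-68*) did so in all 3 tumors, 4 in exactly 2 and 19 in exactly 1. In the WT tumors 1 member, *Igkv8-16*, reached that level, in WT tumor 3. The limit is a far larger part of the summed *Igkv* value in the WT tumors (3035 to 7072) than in the knockout tumors (62254 to 142227). Counts of the groups at this limit are therefore not on a like footing. Of the 48 members that reached 100 in a knockout tumor, 31 had at least 80% of their knockout value in 1 tumor. *Igkv19-93* had 32433 normalized counts in knockout tumor 3 and 41.2 and 124 in knockout tumors 1 and 2. *Igkv3-12* had 13722 in knockout tumor 2 and 1.87 and 4.47 in knockout tumors 1 and 3. Such genes had large mean differences with large errors, and the log2 fold change of *Igkv3-12* was 1.94 with an SE of 2.85 (adjusted p = 0.937 by limma).
Other genes of this kind were found in each knockout tumor. In knockout tumor 1, *Igkv1-110* reached 7400 normalized counts and *Igkv5-48* 4780. Knockout tumor 2 held *Igkv6-14* at 4166. Knockout tumor 3 held *Igkv4-91* at 14701, *Igkv1-117* at 5904 and *Igkv17-127* at 3332. By contrast, *Igkv6-20* (3721 in knockout tumor 1 and 1016 in knockout tumor 3) and *Igkv6-15* (2201 in knockout tumor 2 and 1604 in knockout tumor 3) were abundant in 2 knockout tumors. Among the leading genes of the WT tumors, *Igkv3-5* had 911 normalized counts in WT tumor 2, which was 30.0% of its summed *Igkv* value, and 6.55 and 8.18 in WT tumors 1 and 3. *Igkv10-94* had 358 normalized counts in WT tumor 1 and 10.2 and 14.3 in WT tumors 2 and 3. Both genes had their highest level in knockout tumor 1. Across the knockout tumors *Igkv3-5* had 1932, 306 and 16.7 normalized counts and *Igkv10-94* had 656, 16.6 and 23.5.

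Counted by share, 18 members held at least 5% of the summed *Igkv* value in some tumor, 9 of them in a WT tumor and 13 in a *Tgm2* knockout tumor. The 4 that did so in both groups were *Igkv1-110*, *Igkv10-96*, *Igkv19-93* and *Igkv4-68*. In all 3 knockout tumors only *Igkv9-124* and *Igkv4-55* reached 5%. In all 3 WT tumors only *Igkv8-16* did, with 7.30% as its lowest share. The share of 4 members (*Igkv9-124*, *Igkv4-55*, *Igkv4-72* and *Igkv4-80*) was higher in every knockout tumor than in any WT tumor. The share of 23 members was lower in every knockout tumor. In level, 0 of the 76 members tested were lower in every knockout tumor. Among the 23, *Igkv12-38* was not tested. Its share was 0.0248%, 0.0339% and 0.190% across the WT tumors and 0% in each knockout tumor, so its level was lower there too. Shares are set within the 83 members, so these counts have no background over all genes and nothing is read from them.

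The number of genes needed to reach a given part of the *Igkv* signal separated the groups at 90% but not at 50%. The number of genes that together held 90% of the summed *Igkv* value was 30, 30 and 21 across the WT tumors, against 13, 12 and 8 across the knockout tumors, without overlap. For 50% it was 6, 4 and 3 across the WT tumors, against 4, 3 and 2 across the knockout tumors, and the 3 leading genes together held 32.3%, 44.0% and 56.7% across the WT tumors, against 45.9%, 55.0% and 67.9% across the knockout tumors, both with overlap. The effective number of genes, the exponential of the Shannon entropy of the shares, was 29.2, 21.6 and 13.7 across the WT tumors, against 14.4, 12.2 and 7.99 across the knockout tumors. These overlapped, since WT tumor 3 lay below knockout tumor 1. The leading gene alone took 13.7%, 30.0% and 39.0% across the WT tumors, against 23.0%, 23.5% and 34.7% across the knockout tumors, which also overlapped.
More genes were detected in the knockout tumors, in which more *Igkv* reads were counted. Members with a normalized count of at least 1 numbered 66, 68 and 69 across the WT tumors, against 73, 72 and 73 across the knockout tumors. Since 1 read is worth less than 1 normalized count in some tumors, members were also counted by at least 1 read. They then numbered 72, 69 and 70 across the WT tumors, against 74, 73 and 73 across the knockout tumors. At an equal number of *Igkv* reads, 2917, the lowest of any tumor, the expected number with at least 1 read was 69.8, 69.0 and 65.0 across the WT tumors, against 50.7, 48.4 and 39.9 across the knockout tumors. The order of the groups thus turned when the number of *Igkv* reads was made equal, with no overlap either way.

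**Figure D3:**
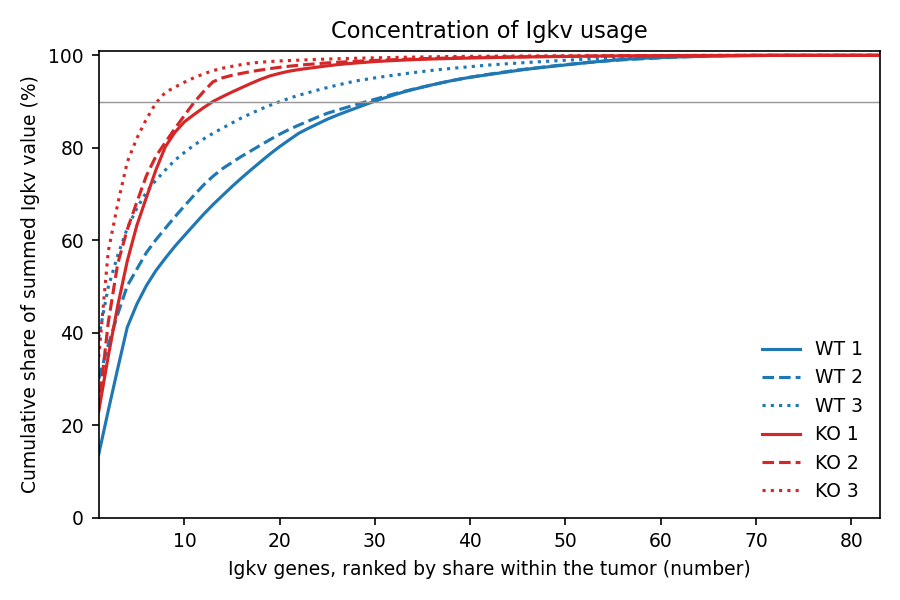
Cumulative share of the summed Igkv value (percent, vertical axis) over the 83 Igkv genes ranked by their share within each tumor (horizontal axis), 1 line per tumor, WT in blue and Tgm2 knockout (KO) in red. The grey line marks 90%, which the knockout tumors passed at 8 to 13 genes and the WT tumors at 21 to 30 genes.

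Position along the locus was set beside usage, since variable genes in the orientation of *Igkc* join by deletion and those in the opposite orientation by inversion. Members on the plus strand, the strand of *Igkc*, held 32.6%, 54.8% and 32.8% of the summed value across the WT tumors, against 20.9%, 27.6% and 8.88% across the knockout tumors, without overlap. The 21 *Igkv4* members and *Igkv9-124* all lie on the minus strand. Members further from *Igkc* than the median member (1.35 Mb) held 54.9%, 36.3% and 40.5% across the WT tumors, against 70.3%, 40.9% and 60.2% across the knockout tumors, which overlapped. The leading genes were spread over the locus. *Igkv9-124* lies 2.78 Mb from *Igkc*, *Igkv19-93* 1.99 Mb, *Igkv4-55* 1.12 Mb, *Igkv8-16* 0.339 Mb and *Igkv3-5* 0.0625 Mb.

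**Figure D4:**
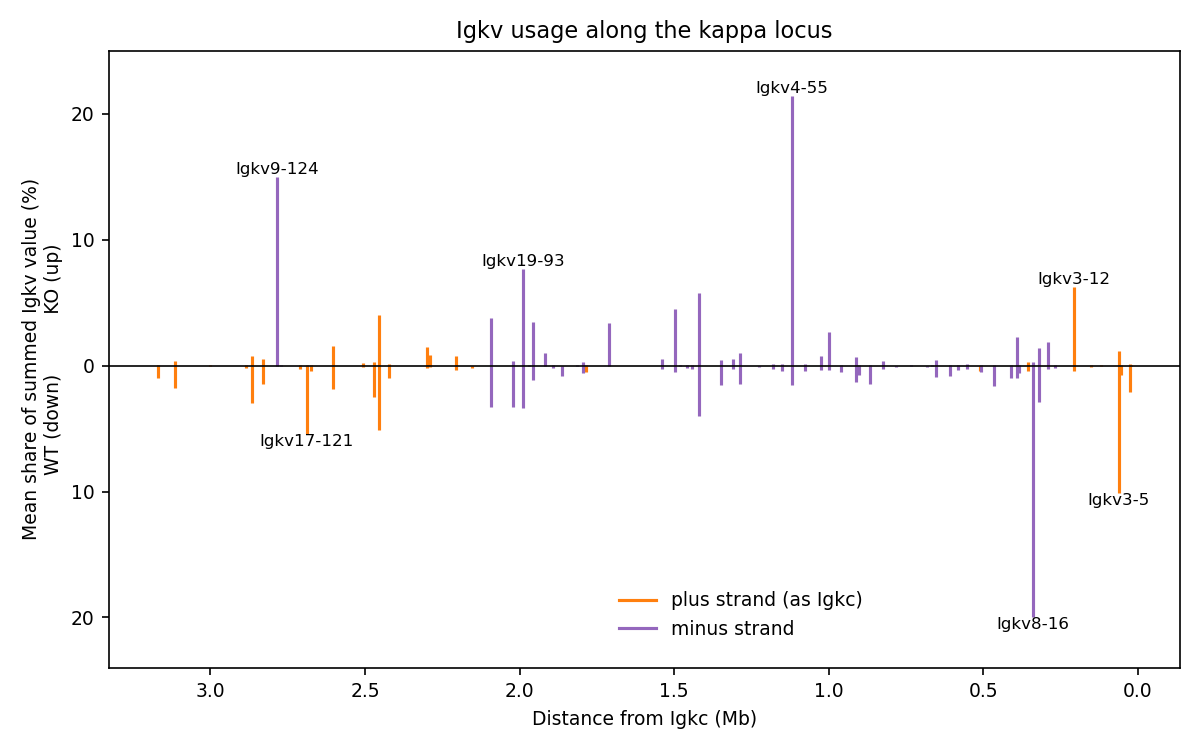
Mean share of the summed Igkv value (percent, n = 3 tumors per group) of each Igkv gene against its distance from Igkc in Mb, with Tgm2 knockout (KO) tumors drawn upward and WT tumors downward, plus-strand genes in orange and minus-strand genes in purple. Igkv4-55 (21.4%) and Igkv9-124 (14.9%) stand out in the knockout tumors and Igkv8-16 (19.98%) and Igkv3-5 (10.1%) in the WT tumors. The mean of Igkv3-5 comes from WT tumor 2 (30.0%), with 0.173% and 0.116% in WT tumors 1 and 3.

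Most pairs of tumors from the same group had more of their usage in common than pairs from different groups. The overlap of 2 share profiles, the sum over genes of the smaller of the 2 shares, was 32.4% to 49.1% for pairs of WT tumors, 23.6% to 45.6% for pairs of *Tgm2* knockout tumors and 15.0% to 29.5% for pairs across groups. At the subgroup level it was 51.2% to 64.2%, 52.5% to 64.5% and 22.7% to 48.2%. At the gene level, knockout tumors 1 and 3, at 23.6%, were less alike than WT tumor 3 and knockout tumor 1, at 29.5%. The pairs share tumors, and no test was made.

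The genes that act with the kappa variable genes were taken from a list of 34, of which 31 were in the table and tested. Of these, 5 rose in *Tgm2* knockout tumors past both limits and 0 fell (background 0.102% and 0%), 20 were higher in each knockout tumor than in any WT tumor (background 5.18%), and the median log2 fold change was 2.63. The 5 genes were *Igkc* (log2 fold change 4.25, SE 0.44, adjusted p = 0.0143 by limma), *Jchain*, which links antibody units for secretion, *Mzb1*, a chaperone cofactor of antibody-secreting cells, *Pou2af1*, a coactivator of immunoglobulin genes, and *Cd79a*, a signaling chain of the B cell receptor. *Jchain* had 1461, 2231 and 2511 normalized counts across the WT tumors, against 42273, 62782 and 67245 across the knockout tumors (log2 fold change 4.80, SE 0.29, adjusted p = 0.000989 by limma). *Mzb1*, *Pou2af1* and *Cd79a* had log2 fold changes of 4.27, 3.76 and 3.01.
Genes of kappa rearrangement stayed near the detection limit. *Rag2*, a subunit of the recombinase, had at most 19.2 normalized counts in any tumor, *Dntt*, which adds bases at the joints, at most 16.4, and *Vpreb1* of the surrogate light chain at most 14.4, while *Rag1*, *Vpreb2* and *Igll1* are not among the genes of the table.
The lambda light chain genes, the alternative to kappa, were higher in every knockout tumor in all 6 listed (background 5.18%), but 0 of 6 passed adjustment (background 0.102%). The constant genes *Iglc1*, *Iglc2* and *Iglc3* summed to 177, 793 and 615 normalized counts across the WT tumors, against 34202, 49596 and 4200 across the knockout tumors. Relative to *Igkc* this was 0.0199, 0.120 and 0.0421 across the WT tumors, against 0.264, 0.328 and 0.0140 across the knockout tumors, which overlapped, because knockout tumor 3, the tumor with the most *Igkv* signal, had the lowest ratio of all.

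Markers of other cells moved with the groups to different degrees. Summed over 10 plasma cell markers, of which *Jchain* was the most abundant over all tumors but lay below *Xbp1* and *Sdc1* in each WT tumor, normalized counts were 16078, 18158 and 13280 across the WT tumors, against 60102, 82962 and 86917 across the knockout tumors, with 2 of 10 past the limits (background 0.102%) and 8 of 10 higher in every knockout tumor (background 5.18%). Over 10 B cell markers the sums were 812, 513 and 659 across the WT tumors, against 1751, 1647 and 2514 across the knockout tumors, with 1 of 10, *Cd79a*, past the limits and 6 of 10 higher in every knockout tumor, while *Blk*, *Cr2*, *Fcer2a* and *Cd22* overlapped. Over 6 T cell markers, of which *Trac* was the most abundant, the sums were 1521, 915 and 833 across the WT tumors, against 1564, 1678 and 2907 across the knockout tumors, with 0 of 6 past the limits and 2 of 6 (*Cd3g* and *Cd4*) higher in every knockout tumor, and the sums did not overlap. The labels call the cells cancer cells, and the epithelial and mesothelial markers were high in all tumors, at 69767 to 82122 in the WT and 58409 to 68791 in the knockout tumors, beside these B lineage transcripts. This sum was lower in every knockout tumor, as were 2 of its 8 markers (*Krt8* and *Krt19*, background 5.33%), with 0 of 8 past the limits, and the part of this shift in the *Igkv* values was not tested.
The white adipocyte markers overlapped in their sum, though not in their mean on the log2 scale. The sum over 10 genes, of which *Lpl* was the most abundant, was 39818, 53570 and 28631 across the WT tumors, against 43878, 162417 and 93432 across the knockout tumors, with 5 of 10 higher in every knockout tumor (background 5.18%), 1 (*Lep*) past the limits (background 0.102%) and none of the 10 at 0 in any tumor. Gut epithelium markers, of which *Epcam* was the most abundant, overlapped between the groups. They summed to 261, 1047 and 8699 across the WT tumors, against 1533, 1085 and 232 across the knockout tumors.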

How the data were processed

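RNA from 3 WT and 3 *Tgm2* knockout tumors was analysed, grouped by the genotype labels. The authors quantified transcripts with kallisto (0.46.2 on GRCm38 per the submitters' processing notes), took gene sums by biomaRt, filtered low genes and applied DESeq2 size factors. The deposited values are therefore a normalized count signal rather than whole counts, and no count model was fitted. Genes reaching 1 in 3 or more tumors were tested on log2(value + 1) with limma 3.58.1 in R 4.3.3, with a variance trend, no covariate and Benjamini-Hochberg adjustment. The model was tested on simulated data. Shares, diversity and overlaps were computed in Python 3.11.15, and identities of variable exons with Biopython 1.88 from GENCODE M21 transcripts. Depth is equal enough that 1 read is worth 0.946 to 1.08. Members and gene lists were chosen with earlier results of these data known. The genes named are those past the limits, the 5 with the highest mean share per group, those with a share of at least 5% in any tumor, the leading genes of the 6 most used subgroups, the member with the lowest fold change and the pathway genes; *Igkv9-120*, *Igkv8-27*, *Igkv4-63*, *Igkv1-117* and the members sharing a CDR3 end were named after their values were seen. Alternatives changed the pseudocount, filter, scaling, variance trend, covariate, replicate block, member set, share scale and diversity index, and left out each tumor in turn. Recombination signals, which need genome sequence, were not analysed here. The single-gene results of 2 listed genes are not reported here.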

Additional observations from a re-analysis of the deposited data

How the results depend on the processing

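Of the 3 *Igkv* genes past the limits, 1 remained (*Igkv9-124*) with a pseudocount of 10, with the replicate block and without the variance trend, and 0 remained with the white adipocyte covariate, a fit in which *Igkv9-124* had an adjusted p of 0.254 by limma. The share of all genes past the limits under each of these settings is not given here. Whether the lost calls are particular to *Igkv* genes was not tested. Leaving out 1 tumor gave 1 to 3. *Igkv4-80* and *Igkv4-72* each lost their call without WT tumor 1, 2 or 3 and without knockout tumor 2, and *Igkv4-72* also without knockout tumor 3. The replicate numbers do not pair the tumors, as the deviations of same-numbered tumors correlated at -0.20, 0.28 and -0.31. The count of lower genes was 0 under every setting run. The median log2 fold change (1.51) was 1.91 with a pseudocount of 0.1, 1.01 with 10, 1.94 with a filter at 10, 1.69 after quantile normalization, 1.81 with the adipocyte covariate and 1.03 to 1.73 when 1 tumor was left out.

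The subgroups with a higher share in every knockout tumor (2) fell to 1 (*Igkv4*) without the most abundant genes, where the *Igkv9* difference was -0.78 percentage points, and were 2 to 3 when 1 tumor was left out. Those with a lower share (3) were 1 on the centred log ratio scale and 3 to 7 when 1 tumor was left out, with 7 without WT tumor 3 and 7 without knockout tumor 1. The difference in detected genes (5) was 11 at a limit of 10 and 3 at a limit of 1 read. By the limit of 1 read it was -21.6 at an equal number of *Igkv* reads. The difference in the effective number (-9.99) was -3.29 by the inverse Simpson index and -13.9 to -6.13 when 1 tumor was left out.

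The direction also turned in single genes, none of which passed the limits. *Igkv17-127* (-0.07) was 0.25 with a pseudocount of 10, 2.73 with the adipocyte covariate and -2.79 to 1.67 when 1 tumor was left out. The adipocyte covariate gave -0.97 for *Igkv19-93*, -6.10 for *Igkv3-12*, -5.84 for *Igkv6-14* and -4.39 for *Igkv6-15*. When 1 tumor was left out, log2 fold changes ranged from -0.76 to 2.72 for *Igkv1-110*, from -0.93 to 2.33 for *Igkv10-94*, from -1.98 to 4.13 for *Igkv3-12*, from -0.077 to 4.57 for *Igkv4-91* and from -1.20 to 4.81 for *Igkv6-14*. The cause of these changes was not tested. One read was worth 0.946 to 1.08 normalized counts in the 6 tumors, but shares in the WT tumors rest on few *Igkv* reads, 4011, 2917 and 6969 in all.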

Other observations

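The kappa joining genes, which follow the variable part in each transcript, were listed at low values. These lay far under *Igkc*, at 129652 to 300054 normalized counts across the knockout tumors, although each transcript holds both parts. They are therefore no measure of how often each joining gene was used, and the cause was not tested. *Igkj5* had 8.05, 7.76 and 8.56 normalized counts across the WT tumors, against 91.5, 213 and 81.5 across the knockout tumors (log2 fold change 3.69, SE 0.60, adjusted p = 0.153 by limma), and the groups did not overlap. *Igkj1*, *Igkj2* and *Igkj4* overlapped, and their highest values all belonged to knockout tumor 2, at 148, 132 and 106 normalized counts.

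Markers of germinal centers, where B cells mutate and select their variable genes, did not pass the limits in any of the 7 genes, and 1 of 7, *Mef2b*, was higher in every knockout tumor (background 5.18%). *Mki67*, the most abundant, is a gene of dividing cells in general, and the list summed to 11994, 6321 and 5040 normalized counts across the WT tumors, against 8092, 6588 and 11637 across the knockout tumors. *Rgs13*, chosen after its values were seen, had 5.71, 1.05 and 3.06 across the WT tumors, against 76.1, 7.90 and 2.12 across the knockout tumors, so its highest value was in knockout tumor 1.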
